A study of Homo sapiens with 18 samples.

Results

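The aryl hydrocarbon receptor pathway was followed in VCaP prostate cancer cells through 7 genes, namely the receptor gene AHR, its partner ARNT, the repressors AHRR and TIPARP, and the cytochrome P450 targets CYP1A1, CYP1B1 and CYP1A2. All 7 were found among the 22034 genes of the count table. The set was chosen by the rise of CYP1A1 between 8 and 12 h of PBITE-1, with the question whether other targets of the receptor follow. The PBITE-1 values of CYP1A1 are therefore given as a description, without a test.

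VCaP is a line from a metastasis of prostate cancer that carries the TMPRSS2:ERG fusion, and PBITE-1 is a small molecule that the study describes as a ligand of the PNT domain of ERG. The 18 RNA-seq samples fell into 6 groups of 3. VCaP-shERG cells, which hold a doxycycline-inducible (pLKO-Tet-on) hairpin against ERG, were labelled DMSO or Dox at 1 µg/mL. Parental VCaP cells received DMSO or PBITE-1 at 50 µM for 4, 8 or 12 h. The methods of the study name DMEM with fetal bovine serum for VCaP cells and no separate medium for VCaP-shERG cells. Both DMSO groups had no stated collection time. The labels give no duration for Dox (a figure label of the study reads 12 h), and a hairpin control with Dox was not analysed here. The study describes its samples as biological replicates but does not say how the cultures were separated, so p-values measure the spread between these samples.

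AHR is a ligand-activated transcription factor of the bHLH-PAS family that waits in the cytoplasm in a complex with HSP90. Bound by dioxins, polycyclic aromatic hydrocarbons or tryptophan metabolites, it enters the nucleus, pairs with ARNT and binds xenobiotic response elements, whose core is GCGTG. CYP1A1 is its classical target, AHRR competes for ARNT, and TIPARP, an ADP-ribosyltransferase, lowers the receptor's activity in a feedback loop.

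Of the 7 genes, 6 had promoter windows in RefSeq (GRCh38.p14), each from 250 bases before to 50 bases after a start, 9 windows in all. CYP1B1 was not among them. The core GCGTG was searched on both strands, in the window or as its reverse complement CACGC, and 5 of the 9 windows held it, as did 36.5% of all 35116 windows of this length. Shown 5′ to 3′ with the matches in capitals are the windows of CYP1A1 and CYP1A2, which lie next to each other on chromosome 15. Those of AHR and TIPARP, the tested members called higher at 4 h, are shown likewise. That of CYP1A1 (chr15:74725479-74725778, minus strand) held 1 match, 57 bases before the start, that of CYP1A2 (chr15:74748595-74748894, plus strand) held 0, that of AHR (chr7:17298402-17298701, plus strand) held 1, 38 bases into the transcript, and the most upstream of 3 windows of TIPARP (chr3:156674340-156674639, plus strand) held 2, at 208 and 142 bases before the start.
CYP1A1: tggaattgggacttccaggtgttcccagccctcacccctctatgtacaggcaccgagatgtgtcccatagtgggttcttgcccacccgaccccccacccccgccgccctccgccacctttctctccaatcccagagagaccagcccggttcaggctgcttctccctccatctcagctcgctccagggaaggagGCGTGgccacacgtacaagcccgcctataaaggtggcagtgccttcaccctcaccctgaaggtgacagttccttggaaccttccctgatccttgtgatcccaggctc
CYP1A2: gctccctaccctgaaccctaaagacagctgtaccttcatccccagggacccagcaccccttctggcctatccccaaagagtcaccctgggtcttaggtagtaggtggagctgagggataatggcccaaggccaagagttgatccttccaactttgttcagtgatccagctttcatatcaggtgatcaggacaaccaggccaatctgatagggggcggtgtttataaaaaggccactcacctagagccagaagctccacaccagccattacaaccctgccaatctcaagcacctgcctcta
AHR: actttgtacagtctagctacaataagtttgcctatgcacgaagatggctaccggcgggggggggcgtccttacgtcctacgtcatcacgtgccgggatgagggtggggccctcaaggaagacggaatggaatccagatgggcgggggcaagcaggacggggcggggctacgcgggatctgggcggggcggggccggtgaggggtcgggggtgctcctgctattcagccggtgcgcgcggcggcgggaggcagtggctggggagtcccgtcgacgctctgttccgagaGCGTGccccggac
TIPARP: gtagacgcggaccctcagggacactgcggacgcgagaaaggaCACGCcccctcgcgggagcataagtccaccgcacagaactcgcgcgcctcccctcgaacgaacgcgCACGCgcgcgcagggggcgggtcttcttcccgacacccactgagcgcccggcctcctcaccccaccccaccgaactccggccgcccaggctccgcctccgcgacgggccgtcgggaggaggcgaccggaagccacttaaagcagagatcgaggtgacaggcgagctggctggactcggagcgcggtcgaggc
Of the windows that are not shown, the 2 of AHRR held 1 and 2 matches, and that of ARNT and the 2 others of TIPARP held 0. A match is a string of letters and not a measured binding site, and the known enhancer of CYP1A1 lies further upstream than these windows reach.

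Totals were 11308600 to 17483423 counts per sample, and 14164 genes passed the filter on low counts, 6 of the 7 members among them. Values are counts divided by library size (CPM) and scaled by TMM, and a gene was called higher or lower at an adjusted p under 0.05 with a log2 fold change beyond 1 in limma. With Dox, ERG fell by 1.44 on the log2 scale (adjusted p = 3.29e-22, limma), from 419 ± 12.2 to 154 ± 3.91 CPM (SD, n = 3), and after 12 h of PBITE-1 it fell by 1.58 (adjusted p = 7.45e-28). All 8 markers of luminal prostate epithelium were detected. Their sum was 4890 to 5044 CPM with DMSO and 2590 to 3130 CPM at 12 h in parental cells, and 6278 to 6359 CPM with DMSO and 3749 to 3793 CPM with Dox in VCaP-shERG cells. The 2 basal markers in the table summed to at most 6.14 CPM, with the lowest sums at 12 h and with Dox in either line. The 4 markers of leukocytes, endothelium and fibroblasts summed to 1.09 to 1.73 CPM with DMSO and 5.85 to 9.21 CPM at 12 h, and to 0.822 to 1.69 CPM with DMSO and 4.95 to 5.82 CPM with Dox. Of these, COL1A1 reached 7.35 CPM, and PTPRC had at most 4 counts and COL1A2 at most 1 in any sample. Of 3 hepatocyte markers, summed at 22.8 to 70.9 CPM, ALB gave most (21.6 to 59.8 CPM) and TTR up to 11.9 CPM, and the sum was lowest at 12 h of PBITE-1 and highest with Dox. The part of these shifts in the results was not tested. In bulk samples, fewer cells of a type and less RNA per cell cannot be told apart.

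On a scale per kilobase of exon (RPKM), the 7 genes stood in a different order in parental DMSO samples and after 12 h of PBITE-1. In DMSO, ARNT was highest at 6.72 ± 0.149 RPKM (SD, n = 3), followed by CYP1B1 at 3.45 ± 0.264, TIPARP at 2.41 ± 0.307, CYP1A1 at 0.273 ± 0.0454, AHR at 0.189 ± 0.0617, AHRR at 0.122 ± 0.0124 and CYP1A2 at 0.0325 ± 0.0282. At 12 h, CYP1A1 was highest at 108 ± 4.65 RPKM, followed by TIPARP at 15.3 ± 1.96, ARNT at 11.0 ± 0.298, AHR at 2.03 ± 0.262, CYP1B1 at 0.897 ± 0.102, AHRR at 0.113 ± 0.0127 and CYP1A2 at 0.0877 ± 0.0459. CYP1A1 and CYP1B1, targets of the same receptor, thus moved apart. Within each sample, the ratio of CYP1A1 to CYP1B1 per length was 0.0801 ± 0.0190 in DMSO. With PBITE-1 this ratio became 0.284 ± 0.0997 after 4 h, 1.00 ± 0.130 after 8 h and finally 122 ± 19.5 after 12 h (SD, n = 3).

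**Figure D1:**
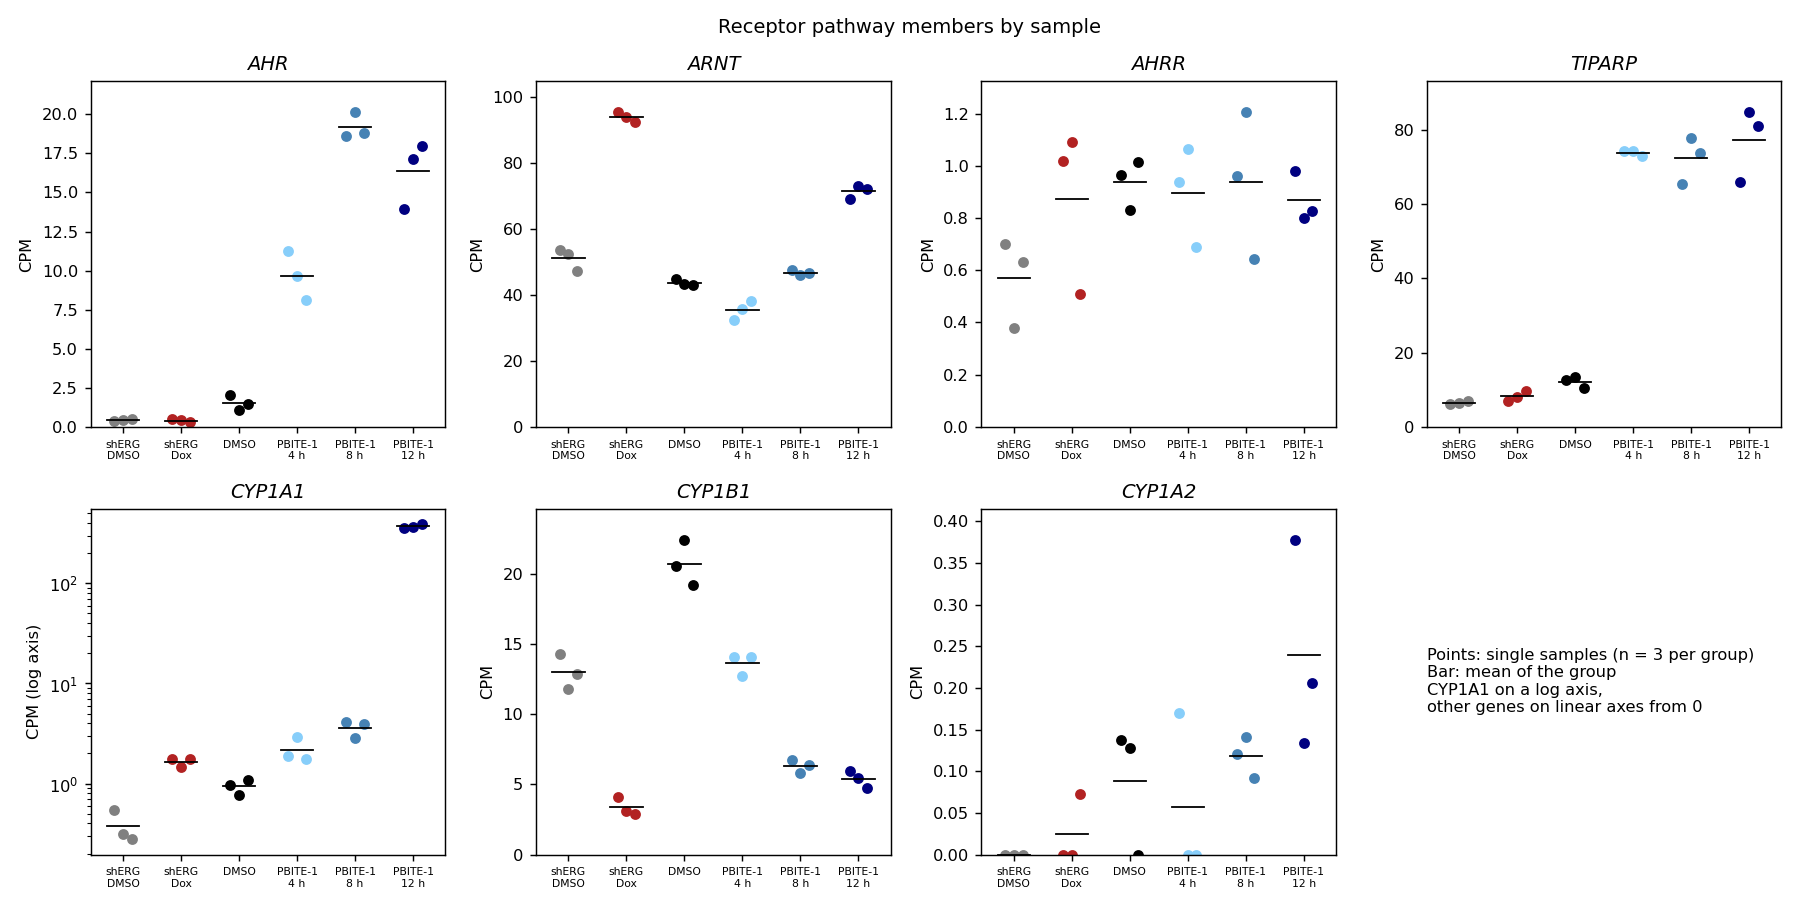
CPM (scaled over all 18 samples) of the 7 genes in each sample of the 6 groups, with points for single samples and a bar for the mean of 3. CYP1A1 is drawn on a log axis and reaches 355 to 387 CPM at 12 h, AHR and TIPARP are already high at 4 h, and CYP1B1 falls over the course and with Dox.

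AHR, the receptor itself, was among the rarer transcripts of untreated cells and rose at the first time point. Its counts were 30, 17 and 24 in parental DMSO samples, 132, 127 and 106 at 4 h, 309, 284 and 204 at 8 h, and 185, 257 and 261 at 12 h of PBITE-1. In VCaP-shERG cells they were 5, 7 and 7 with DMSO and 7, 6 and 4 with Dox. After scaling for depth, every PBITE-1 sample was above every DMSO sample, whereas the 2 groups of VCaP-shERG overlapped. AHR rose by a log2 fold change of 2.70 at 4 h (SE 0.26, adjusted p = 2.69e-11), 3.70 at 8 h (SE 0.25, adjusted p = 2.68e-16) and 3.49 at 12 h (SE 0.25, adjusted p = 1.18e-15, limma), or 6.48-fold, 13.0-fold and 11.2-fold. In Dox samples the log2 fold change was -0.15 (SE 0.50, adjusted p = 0.808), with a 95% interval from -1.18 to 0.89 that reaches past the fold threshold on the lower side.

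The mean of AHR was highest at 8 h. Between 4 and 8 h AHR rose by a further 1.01 (log2, SE 0.13, adjusted p = 1.72e-08), just past the fold threshold of 1. This call was lost, with values of 0.88 to 1.00, when libraries were scaled by total counts alone, in edgeR and DESeq2, and without replicate 3 of 4 h or replicate 2 of 8 h. Between 8 and 12 h the log2 fold change was -0.21 (SE 0.11, adjusted p = 0.0798). The level in the parental DMSO samples, 1.53 ± 0.498 CPM, was above that in the VCaP-shERG DMSO samples, 0.441 ± 0.0514 CPM, with no overlap of the samples. An antisense gene and a further protein-coding model on the same strand overlap exons of AHR and were not used here, and since use of strand in counting was not stated, their reads could not be told apart from those of AHR.

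ARNT, the shared partner of AHR and of the HIF alpha subunits, was the most abundant regulator per length in parental DMSO samples. It had counts of 650, 678 and 720 in parental DMSO samples, 379, 470 and 499 at 4 h, 793, 651 and 506 at 8 h, and 917, 1092 and 1046 at 12 h. VCaP-shERG samples had 691, 829 and 673 with DMSO and 1404, 1291 and 1269 with Dox. Scaled for depth, the 4 h samples were the lowest and the Dox samples the highest of all groups, and neither overlapped another group. No change of ARNT passed the fold threshold, although several were larger than the spread between samples. The log2 fold change was -0.28 at 4 h (SE 0.07, adjusted p = 0.000755), 0.13 at 8 h (SE 0.06, adjusted p = 0.0709), 0.75 at 12 h (SE 0.06, adjusted p = 1.51e-14, limma) and 0.88 with Dox (SE 0.05, adjusted p = 9.37e-14). With Dox it was past the threshold when samples were scaled by upper quartiles (1.04) or total counts alone (1.14). From 8 to 12 h, ARNT differed by 0.62 on the log2 scale (SE 0.06, adjusted p = 1.33e-11).

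The balance of receptor to partner followed from both. Per length, the AHR to ARNT ratio was 0.0281 ± 0.00856 in parental DMSO samples, 0.223 ± 0.0550 after 4 h, 0.330 ± 0.0193 after 8 h and then 0.185 ± 0.0198 after 12 h (SD, n = 3). It remained below 1 in every sample, so ARNT stayed the more abundant transcript on this scale. In VCaP-shERG cells the ratio was 0.00701 ± 0.00129 with DMSO and 0.00344 ± 0.000787 with Dox.

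**Figure D2:**
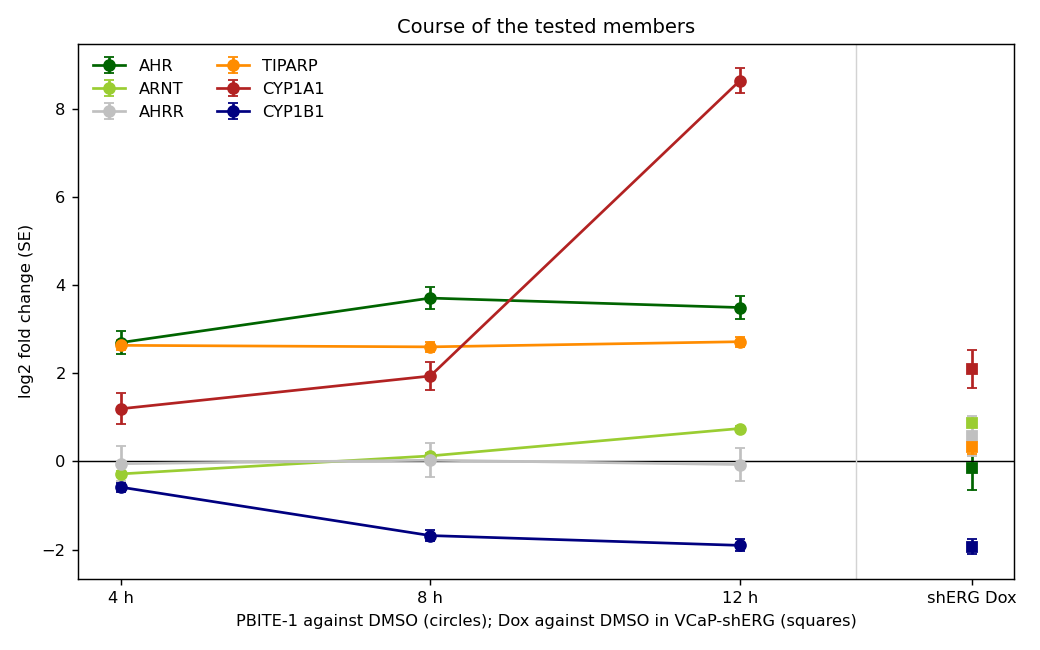
Log2 fold change of the 6 tested genes against the DMSO samples of the same line, with SE as error bars. Circles joined by lines are 4, 8 and 12 h of PBITE-1, squares are Dox in VCaP-shERG. AHR and TIPARP reach 2.70 and 2.63 by 4 h and CYP1A1 reaches 8.63 only at 12 h, while CYP1B1 lies near -1.9 both at 12 h and with Dox.

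TIPARP, the feedback target, was raised by 4 h, as AHR was, and had like levels at the later times. Parental samples had 181, 211 and 175 counts with DMSO, 870, 976 and 951 at 4 h, 1085, 1099 and 800 at 8 h, and 874, 1266 and 1178 at 12 h. VCaP-shERG samples had 79, 100 and 99 with DMSO and 104, 109 and 133 with Dox. All 9 PBITE-1 samples lay above all DMSO samples, and the 3 times overlapped each other. Its log2 fold change stood at 2.63 by 4 h (SE 0.11, adjusted p = 5.21e-22), 2.60 at 8 h (SE 0.11, adjusted p = 1.72e-22) and 2.72 at 12 h (SE 0.11, adjusted p = 1.65e-23, limma), about 6-fold throughout. From 8 to 12 h, when CYP1A1 rose most, the change of TIPARP was 0.12 (log2, SE 0.07, adjusted p = 0.142), with a 95% interval from -0.02 to 0.26. With Dox it was 0.33 (SE 0.15, adjusted p = 0.0553). A gene on the other strand, which shares exonic sequence with TIPARP, was not analysed here.

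AHRR, the repressor that is itself a common target of the receptor, stayed at the lower end of detection in all groups. Its counts were 6 to 9 with DMSO and 7 to 15 with Dox in VCaP-shERG cells. Parental cells had 13 to 17 with DMSO, 9 to 14 after 4 h, 7 to 17 after 8 h and then 12 to 13 after 12 h. The parental groups overlapped at every time. Its log2 fold change at 12 h was -0.07 (SE 0.38, adjusted p = 0.877), and the 95% interval from -0.84 to 0.71 lies within the fold threshold on both sides. With Dox the log2 fold change was 0.59 (SE 0.45, adjusted p = 0.253), and the interval there reached 1.52. AHRR overlaps PDCD6 on the same strand, a gene with 443 to 832 counts per sample, so a few misassigned reads would weigh on AHRR.

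CYP1A1, the classical target, oxidises polycyclic aromatic hydrocarbons and is the usual readout of receptor activity. Its counts were 14, 12 and 18 in parental DMSO samples, 22, 38 and 23 at 4 h, 68, 40 and 43 at 8 h, and 4708, 5516 and 5626 at 12 h. All 12 h samples were far above all others, all 4 h samples were above the DMSO samples, and the 4 and 8 h samples overlapped. On the CPM scale the means were 0.937 ± 0.156, 2.18 ± 0.624, 3.63 ± 0.690 and 370 ± 16.0 (SD, n = 3). Against DMSO, CYP1A1 differed on the log2 scale by 1.20 after 4 h, by 1.94 after 8 h and by 8.63 after 12 h, the last a 396-fold difference. The step from 8 to 12 h was 6.69 on the log2 scale, or 103-fold, the largest of the 14164 genes in that comparison, with HSPA6, a stress-inducible HSP70 gene, next at 6.66. Against DMSO at 12 h, CYP1A1 ranked 4th.

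In VCaP-shERG cells, CYP1A1 had counts of 7, 5 and 4 with DMSO and 26, 20 and 24 with Dox. These samples lie outside the PBITE-1 rise by which the set was chosen, although earlier results of these data were known. All 3 Dox samples were above all 3 DMSO samples. CYP1A1 rose with Dox by 2.09 on the log2 scale (SE 0.43, adjusted p = 0.000112, limma), or 4.27-fold, and remained called without any single sample, with values of 1.93 to 2.35. The Dox samples reached 1.45 to 1.77 CPM and so only just overlapped the parental samples at 4 h, which had 1.76 to 2.89 CPM.

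CYP1B1, a related enzyme of oestrogen and hydrocarbon metabolism, went the other way. Parental samples had 298, 350 and 322 counts with DMSO, 165, 167 and 184 at 4 h, 112, 82 and 69 at 8 h, and 79, 82 and 69 at 12 h. VCaP-shERG samples had 184, 187 and 183 with DMSO and 60, 43 and 40 with Dox. After scaling, all treated samples were below all DMSO samples of the same line, and the 8 and 12 h samples overlapped. Its log2 fold change was -0.58 at 4 h (SE 0.10, adjusted p = 8.26e-06), short of the fold threshold. CYP1B1 then fell to -1.68 at 8 h (SE 0.13, adjusted p = 1.44e-14) and -1.90 at 12 h (SE 0.14, adjusted p = 1.07e-15, limma), or to levels 3.20-fold and 3.74-fold lower. The fall from 4 to 8 h was itself called, at -1.10 (SE 0.14, adjusted p = 2.1e-08), and from 8 to 12 h the log2 fold change was -0.22 (SE 0.17, adjusted p = 0.256).

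With Dox, CYP1B1 fell by 1.93 on the log2 scale (SE 0.18, adjusted p = 2.8e-10), or 3.81-fold. The PBITE-1 response at 12 h minus the Dox response was -0.01 (SE 0.22, adjusted p = 0.967), with a 95% interval from -0.46 to 0.44. The ratio of CYP1A1 to CYP1B1 per length rose with Dox as well, from 0.0506 ± 0.0145 to 0.874 ± 0.155 (SD, n = 3). RMDN2, which overlaps CYP1B1 on the other strand, had 4 to 42 counts per sample. Its log2 fold change was -0.11 at 4 h (SE 0.39, adjusted p = 0.839), -1.39 at 8 h (SE 0.48, adjusted p = 0.00953), -0.22 at 12 h (SE 0.38, adjusted p = 0.605) and 0.85 with Dox (SE 0.28, adjusted p = 0.00798). Between times it was -1.28 from 4 to 8 h (SE 0.50, adjusted p = 0.0296) and 1.18 from 8 to 12 h (SE 0.50, adjusted p = 0.0399, limma). Since use of strand in counting was not stated, reads of RMDN2 and CYP1B1 could not be told apart where they overlap. The 2 genes annotated there as antisense were not analysed here.

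CYP1A2, chiefly a liver enzyme, was close to absent. Its counts were 0, 0 and 0 with DMSO and 0, 0 and 1 with Dox in VCaP-shERG cells, and 2, 2 and 0 with DMSO, 2, 0 and 0 at 4 h, 2, 2 and 1 at 8 h and 5, 2 and 3 at 12 h in parental cells. A count of 0 in the VCaP-shERG DMSO samples allows 0.190 to 0.233 CPM (3 counts per library, counting error only). CYP1A2 did not pass the filter, and its mean CPM of 0.239 ± 0.125 at 12 h and 0.0887 ± 0.0770 with DMSO gave p = 0.2 in a two-sided exact permutation test, where 0.1 is the smallest p that 3 against 3 samples allow. CYP1A2 lies beside CYP1A1 in the opposite orientation, and with at most 5 counts in any sample it had no rise of the size of that of CYP1A1.

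The members other than CYP1A1 were counted together in each comparison. At 4 h against DMSO, 2 of the 5 tested were called higher (AHR and TIPARP) and 0 lower, where 7.28% of all tested genes were called higher and 2.99% lower. At an unadjusted p under 0.05 in limma, 2 members were lower at 4 h (CYP1B1 and ARNT), and edgeR and DESeq2 called 0 lower. At 8 h 2 were higher and 1, CYP1B1, lower, beside 14.9% and 8.86% of all genes. At 12 h the same 3 genes were called, 2 higher and 1 lower, beside 17.1% and 15.4%. These 3 comparisons share their DMSO samples.

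Between 4 and 8 h, 1 member was called higher and 1 lower (AHR and CYP1B1), beside 4.43% and 2.22% of all genes. Between 8 and 12 h the call was made for 0 of 5 in either direction, beside 3.48% of genes called higher and 6.59% lower, and edgeR and DESeq2 called 0 as well. With 5 genes, a count of 0 is near these shares and is no result about the members. At an unadjusted p under 0.05 in limma, 1 of the 5 was higher, ARNT, and 0 were lower. With Dox, 1 of 6 tested members was higher and 1 lower (CYP1A1 and CYP1B1), beside 12.0% and 7.19%. The difference between the 12 h and Dox responses was called for AHR, at 3.59 (SE 0.62, adjusted p = 1.73e-06), and TIPARP, at 2.35 (SE 0.22, adjusted p = 4.06e-13), that is 2 of 5 higher and 0 lower, beside 13.0% and 15.9% of all genes. For 1 member, ARNT, the difference was lower at an unadjusted p under 0.05 in limma, and edgeR and DESeq2 called 0 lower. The cell line differs along with the treatment in this comparison, and the 2 cannot be told apart.

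A wider list of genes known as targets of the receptor gave no common direction. Of 22 genes listed, 21 were in the table and 13 were tested, 12 of them besides CYP1A1. At 12 h of PBITE-1, 4 of these 12 were higher, namely TIPARP, SLC7A5 (an amino acid transporter), CYP2S1 (a cytochrome P450) and NFE2L2 (the transcription factor NRF2), and 4 were lower, namely CYP1B1, ALDH1A3 (a retinaldehyde dehydrogenase), XDH (xanthine dehydrogenase) and ABCG2 (a drug transporter), beside 17.1% of all tested genes called higher and 15.4% lower. The median log2 fold change of the 12 was 0.21, beside -0.01 over all tested genes. XDH at -1.01 and ABCG2, with at most 34 counts in a sample, were only just past the threshold, and edgeR called 3 of the 12 lower and DESeq2 2. NQO1, a quinone reductase shared with NRF2, had a log2 fold change of 0.29 (adjusted p = 0.0835, limma).

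SLC7A5 reached 3.66 at 8 h (SE 0.53, adjusted p = 9.41e-08) and 4.34 at 12 h (SE 0.51, adjusted p = 9e-10) on the log2 scale, from a low base, with at most 71 counts in a sample. NFE2L2 had log2 fold changes of 0.62, 1.35 and 1.76 at 4, 8 and 12 h. ALDH1A3 was lower at 12 h, at -1.62 on the log2 scale (SE 0.12, adjusted p = 8.13e-15, limma) and higher with Dox, at 1.57 (SE 0.10, adjusted p = 3.23e-13). In the step from 8 to 12 h, 0 of the 12 were called higher in limma, edgeR or DESeq2, and 1 was lower, CYP2S1, at -1.20 (SE 0.43, adjusted p = 0.0155), beside 3.48% and 6.59% of all genes. At an unadjusted p under 0.05 in limma, 5 were higher and 3 lower in that step. HES1 (0.81, adjusted p = 6.18e-05), SLC7A5 (0.69, 0.0122), POLK (0.59, 3.45e-06) and NFE2L2 (0.41, 1.07e-08) passed adjustment as rises short of the fold threshold. ALDH1A3 (-0.74, adjusted p = 1.87e-05) and XDH (-0.62, 0.000135) did so as falls. CYP2S1, with at most 29 counts in a sample, had been higher than DMSO at 2.03, 3.46 and 2.26 over the 3 times and was higher with Dox, at 2.98 (SE 0.62, adjusted p = 0.000124).

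With Dox, 4 of the 13 targets were higher (CYP1A1, CYP2S1, ALDH1A3 and XDH) and 3 lower (CYP1B1, ABCG2 and HES1, a Notch target), beside 12.0% and 7.19% of all genes. The median was 0.33, beside 0.02 over all genes. Of the other 8 listed genes in the table, CYP1A2 among them, none passed the filter on low counts.

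**Figure D3:**
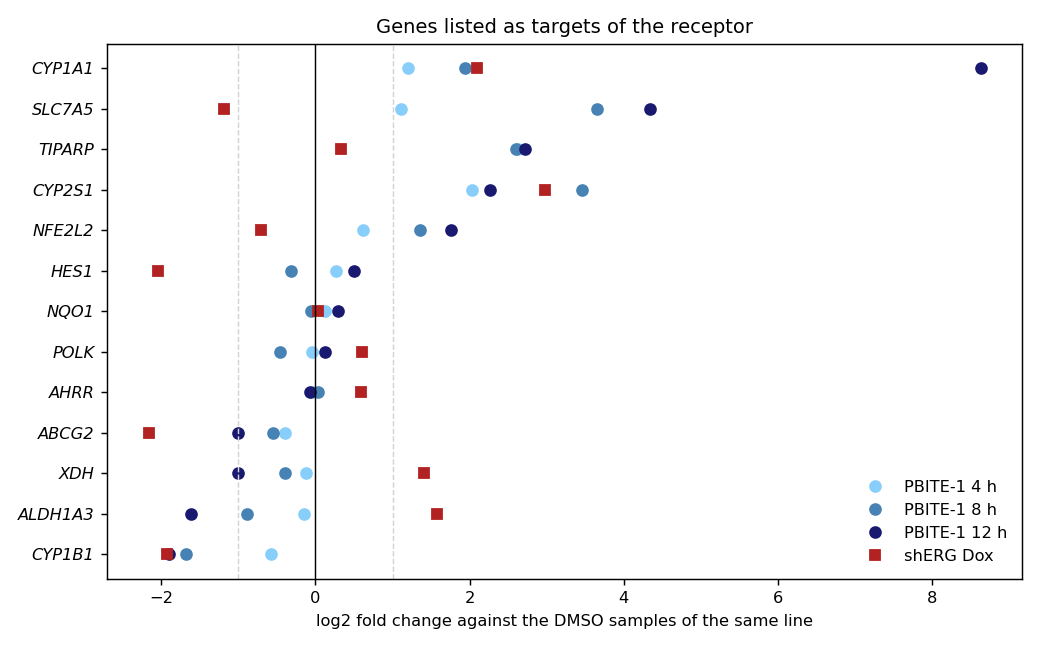
Log2 fold change of the 13 tested genes of the target list against the DMSO samples of the same line, at 4, 8 and 12 h of PBITE-1 (circles, darker with time) and with Dox in VCaP-shERG (squares). Dashed lines mark the fold threshold at -1 and 1. CYP1A1 at 12 h stands at 8.63, and the next, SLC7A5, at 4.34, while 4 genes lie below -1 at 12 h.

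The receptor's partners in the cytoplasm moved little. Of the 6 genes of the receptor complex, AHR was the only one called at 4, 8 or 12 h in limma, edgeR or DESeq2. Over all genes, 7.28%, 14.9% and 17.1% were called higher at these times, and 2.99%, 8.86% and 15.4% lower. With 6 genes, these counts are no result about the complex. The HSP90 genes HSP90AA1 and HSP90AB1 had log2 fold changes of 0.19 and -0.17 at 12 h, and PTGES3 (p23) had -0.59. Among 5 coactivators, NCOA3 was called higher at 8 h (1.53) and 12 h (1.52, SE 0.05, adjusted p = 8.37e-28, limma) and with Dox (1.12, SE 0.05, adjusted p = 3.01e-17). It was the only one called, beside 14.9%, 17.1% and 12.0% of all genes called higher in these comparisons.

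Among other factors of the bHLH-PAS family, 3 of 10 tested were called higher and 0 lower at 12 h in limma, edgeR and DESeq2. Over all genes, 17.1% were called higher and 15.4% lower. At an unadjusted p under 0.05 in limma, 5 of the 10 were higher and 5 lower. Those lower were SIM2 (-0.999, adjusted p = 6.26e-19), ARNT2 (-0.80), NPAS2 (-0.53), CLOCK (-0.53) and BMAL2 (-0.44). All of these passed adjustment, and SIM2, with up to 6962 counts in a sample, was only just short of the fold threshold. The median of the 10 was -0.09. The 3 called higher were the clock factor BMAL1 (2.51, SE 0.13, adjusted p = 2e-20), the activity-induced neuronal factor NPAS4 (5.25, SE 0.67, adjusted p = 5.31e-09) and NPAS1 (1.11, SE 0.40, adjusted p = 0.012, limma). NPAS4 and NPAS1 were scarce, with at most 54 and 33 counts in a sample. Parental DMSO samples had 0.0628 ± 0.0600 CPM of NPAS4, below the floor of 3 counts, and 0.790 ± 0.465 CPM of NPAS1 (SD, n = 3). Of 9 HIF targets tested, which depend on ARNT as those of AHR do, 4 were higher at each of 4, 8 and 12 h. Over all genes the shares were 7.28%, 14.9% and 17.1%. At 12 h they were VEGFA (4.92, SE 0.07), ANKRD37 (2.48, SE 0.37), ADM (2.14, SE 0.16) and KDM3A (1.60, SE 0.06), with PDK1 lower (-1.21), and the median of the 9 was 0.69. Between 8 and 12 h, 0 of these 9 were called in limma, edgeR or DESeq2, and at an unadjusted p under 0.05 in limma 3 were higher and 2 lower. With Dox 5 were lower by all 3 tools, beside 7.19% of all genes in limma, with a median of -1.24. For VEGFA the VCaP-shERG DMSO samples were high and spread, at 69.1 ± 28.9 CPM (SD, n = 3). It had 19.0 ± 2.76 CPM with Dox and 19.9 ± 0.606 CPM in parental DMSO samples. ANKRD37 had 2.61 ± 0.714, 0.784 ± 0.0980 and 0.600 ± 0.0544 CPM in these groups. CPM values of the others called lower with Dox are not reported here.

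Genes of other xenobiotic receptors and of ligand supply were mostly below the filter on low counts. Of 8 genes tied to PXR and CAR, 2 were tested. CYP3A5, a drug-metabolising enzyme, was called higher at 8 h (1.46) and with Dox (3.80). Of 9 enzymes that turn tryptophan into ligands of the receptor, 2 were tested. AADAT, a kynurenine aminotransferase, fell by 3.05 at 12 h on the log2 scale (SE 0.17, adjusted p = 4.63e-19), and AFMID, a formamidase, was called higher at 8 h (1.03) but not at 12 h (0.19, adjusted p = 0.0379).

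The genes most like CYP1A1 in shape over the 12 parental samples were SYNRG, SELENOS, EXOC1, ZC2HC1A, PTPRA, PRSS16, TRAM1 and GFPT1. Their log2 CPM had a Pearson r of 0.991 to 0.996 with that of CYP1A1, as a description over 4 groups of 3 samples, and 643 of 11733 eligible genes had r above 0.9. None came near it in size. Between 8 and 12 h they differed by log2 fold changes of 0.50 (PTPRA) to 1.27 (PRSS16), beside 6.69 for CYP1A1. With Dox they ranged from -0.16 (ZC2HC1A) to 0.62 (EXOC1).

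No tested gene around CYP1A1 had a change of like size. Reaching into 200 kb on either side on chromosome 15 lay 12 other genes of the table, chosen after the values were seen, of which 11 were tested. From 8 to 12 h 0 of the 11 were called in limma, edgeR or DESeq2, beside 3.48% of all genes called higher and 6.59% lower, while 6 had an unadjusted p under 0.05 in limma, with log2 fold changes from -0.81 (LMAN1L) to 0.86 (SCAMP2). The nearest of them on either side, EDC3 and CSK, had 0.86 and 0.21.

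**Figure D4:**
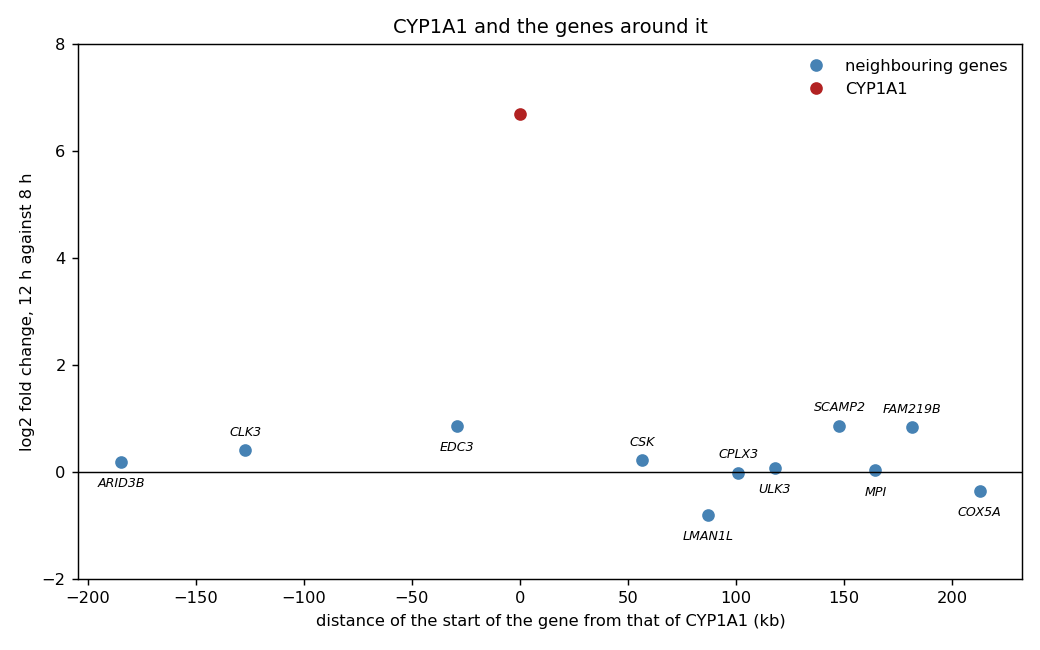
Log2 fold change from 8 to 12 h of PBITE-1 of CYP1A1 and the 11 tested genes reaching into 200 kb on either side, placed by the distance of their starts in kilobases. CYP1A1 stands at 6.69 and the others between -0.81 and 0.86.

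Positions follow GENCODE 29 on GRCh38. The members lie on 6 chromosomes, CYP1A1 at chr15:74719542-74725610 and CYP1A2 at chr15:74748844-74756202, CYP1B1 at chr2:38066973-38109902, AHR at chr7:16916359-17346152, AHRR at chr5:304176-438291, ARNT at chr1:150809705-150876768 and TIPARP at chr3:156673235-156706770. Counts were made per gene, so exons, introns and UTRs were not separated.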

How the data were processed

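RNA-seq of ribosomal RNA-depleted total RNA was deposited by the authors as whole-number counts per Ensembl gene, not normalized, for 18 samples of VCaP in 6 groups of 3, with 11308600 to 17483423 counts per sample. The submitters' processing notes name STAR and featureCounts on hg38, whereas the methods of the study name Kallisto with edgeR and limma-voom. Which of the former made the counts, and whether strand was used, is not given in the sources used here.

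Symbols were matched for 22011 of 22034 genes, and positions and exon lengths were taken from GENCODE 29. Genes passing filterByExpr over the 6 groups (14164) were scaled by TMM (edgeR 4.0.16). The limma-voom test with eBayes followed (limma 3.58.1, R 4.3.3), with Benjamini-Hochberg adjustment over all of them. The 6 VCaP-shERG and 12 parental samples were fitted separately, and the difference between responses was an interaction in 1 fit of 18. A gene was called where its log2 fold change was beyond 1 in either direction at an adjusted p under 0.05. CPM and RPKM used TMM over 18 samples, and log2 CPM for likeness a prior count of 2. CYP1A2, below the filter, was tested by exact permutation, and 3 counts were taken as the floor. The scripts were tested on simulated data.

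Members and gene lists were chosen with earlier results of these data known. Named besides the members were ERG, up to 4 called genes per list with the largest change at 12 h, and the 8 genes closest to CYP1A1 by Pearson r, among tested genes with at least 50 counts in at least 3 parental samples. Other genes were named after their values were seen. Some genes of the lists are not reported here. Alternatives were RLE, upper-quartile or no scaling, TMM over 18 samples, other filters, edgeR's quasi-likelihood test, DESeq2 1.42.0, 1 fit of 18 samples, fits of 2 groups, a replicate block, no fold threshold, and leaving out each sample. No sample was left out of the main results.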

Additional observations from a re-analysis of the deposited data

Results flagged for a closer look

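Between 4 and 8 h of PBITE-1, a test of the difference between these times was called for 2 members. CYP1B1 had a log2 fold change of -1.10 (SE 0.14, adjusted p = 2.1e-08, limma), and AHR had 1.01 (SE 0.13, adjusted p = 1.72e-08). The AHR call rests on the fold threshold and was lost in some alternatives, with the lowest value, 0.88, without replicate 3 of 4 h.

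The response to PBITE-1 at 12 h was larger than the response to Dox for 2 members, by the interaction test. The difference was 3.59 for AHR (SE 0.62, adjusted p = 1.73e-06) and 2.35 for TIPARP (SE 0.22, adjusted p = 4.06e-13, limma). All 3 samples at 12 h were above all 3 DMSO samples for both genes. The line differs with the treatment here, and the 2 cannot be told apart. AHR had only 4 to 7 counts in the VCaP-shERG samples.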

How the results depend on the processing

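Depth limited AHRR and CYP1A2 throughout, and AHR and CYP1A1 in VCaP-shERG cells and in the parental DMSO samples against which their folds were taken, each with at most 30 counts per sample. Leaving out any 1 sample kept the calls of AHR, TIPARP and CYP1B1 against DMSO. The count of members called higher between 8 and 4 h ranged from 0 to 1 in these fits. It fell to 0 without replicate 3 of 4 h (AHR at 0.88) or replicate 2 of 8 h (0.97), and also with scaling by total counts alone (0.99), in edgeR (1.00) and in DESeq2 (0.99), values at the threshold itself.

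Members called higher with Dox numbered 2 with upper-quartile scaling and with total counts alone, where ARNT passed the threshold (1.04 and 1.14). The latter also called 506 genes lower with Dox in place of 1019. The cause was not tested.

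With at least 10 counts required in every sample, 11807 genes were tested, without AHR, AHRR and CYP1A1, which drop out by this rule. Members called higher were then 0 with Dox, 1 at 4 h, 1 at 8 h, 1 at 12 h, 0 between 8 and 4 h, and 1 for the interaction. Over all genes, 915 were called higher with Dox, 554 higher and 213 lower at 4 h, 1354 and 788 at 8 h, 268 and 149 from 4 to 8 h, and 276 and 530 from 8 to 12 h.

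Without a fold threshold, more calls follow by construction. Genes higher and lower numbered 4969 and 5005 with Dox, 3741 and 3495 at 4 h, 5081 and 5238 at 8 h, 5583 and 5586 at 12 h, 3783 and 3732 from 4 to 8 h, 3931 and 4602 from 8 to 12 h, and 4714 and 4970 for the interaction. Among members, 2 were then higher with Dox, 2 lower at 4 h, 3 higher at 12 h, 2 higher from 4 to 8 h and 1 higher from 8 to 12 h, ARNT or CYP1B1 being the added ones.

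Changes of sign occurred only in values that were not called. The interaction of CYP1B1 became 0.0082 with RLE scaling and 0.010 in DESeq2, and ranged from -0.10 to 0.15 without single samples. The Dox value of AHR became 0.015 with upper-quartile scaling and 0.12 with total counts alone (-0.27 to 0.051 without single samples). AHRR at 8 h became -0.036 with total counts alone. Without single samples, AHRR ranged from -0.19 to 0.13 at 4 h, -0.15 to 0.21 at 8 h, -0.10 to 0.26 from 4 to 8 h and -0.28 to 0.084 from 8 to 12 h, and TIPARP from -0.095 to 0.049 from 4 to 8 h.

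Replicate numbers did not pair the samples, with correlations of same-numbered deviations from -0.0232 to 0.0414 in 21 pairs, of which 7 were the best for their sample. The replicate block changed no call among members and moved the genes called at 12 h from 2420 to 2410 higher and from 2176 to 2166 lower.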
